A study of Mus musculus with 9 samples.

Results

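KDM6A ChIP-seq, in which an antibody recovers the DNA that KDM6A is attached to and the DNA is sequenced, was read at 32 genes of the pluripotency network in Sv129 mouse embryonic stem cells. The members were given as a list of names, from the factors Pou5f1, Sox2 and Nanog to their partners, and make up 32 of 21883 protein-coding genes of the RefSeq annotation used. An interval belonged to a member when it overlapped the gene's span, or the 10 kb on either side, by at least 1 bp. Interval lists of 5 libraries were used: KDM6A in cells given 0.12 µM MTX for 24 h (MTX 1 and MTX 2, labelled as folate deficiency in the genotype field), KDM6A in control cells (control 1 and control 2, labelled wild type), and 1 immunoprecipitation with IgG, a nonspecific antibody, from the MTX 1 cells. All cells were grown with serum and leukemia inhibitory factor (LIF) on gelatin. The 4 inputs of the series have no list of their own here. The lists held 24153 and 28951 intervals in MTX 1 and MTX 2, 44814 and 21205 in control 1 and control 2, and 22819 in IgG on the main chromosomes, with 3222234 to 4167265 immunoprecipitated reads inside them. The labels do not say if libraries 1 and 2 are separate cultures, so a spread between them may be technical. ChIP-seq carries no expression values, so the labelled cell type could not be checked against its marker genes.

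KDM6A, also called UTX, is a histone demethylase that removes the methyl mark Polycomb complexes place on histone H3, and it travels with the KMT2C and KMT2D methyltransferases to enhancers and promoters. The pluripotency network is a set of transcription factors that hold embryonic stem cells in a self-renewing state by binding each other's regulatory DNA. LIF feeds into it through its receptor and STAT3, FGF4 drives the exit from it, and TET enzymes and TRIM28 act on DNA methylation and on silencing.

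The promoters below show sequence that intervals lay over. Nanog had a gene-start interval in 4 libraries, the most of any member of known strand, and Trim28, Sox2 and Tet2 are among 8 members with one in 2 libraries, taken by their summed rank in the lists. Mycn, also among the first by rank, is not printed because no interval overlapped its promoter window. Each printed sequence runs 5′ to 3′ along the gene from 250 bases before to 50 after its annotated promoter start (RefSeq, GRCm38.p6, the same build as mm10). Gene-start intervals were counted at the end of the gene's span, which can differ from that start. The Tet2 window lay inside its gene's span. Capitals mark matches to GGGCGG on either strand, the GC box that SP and KLF factors can bind. The windows are Nanog at chr6:122707239-122707538 (plus strand), Trim28 at chr7:13023902-13024201 (plus strand), Sox2 at chr3:34649745-34650044 (plus strand) and Tet2 at chr3:133544341-133544640 (minus strand).
Nanog: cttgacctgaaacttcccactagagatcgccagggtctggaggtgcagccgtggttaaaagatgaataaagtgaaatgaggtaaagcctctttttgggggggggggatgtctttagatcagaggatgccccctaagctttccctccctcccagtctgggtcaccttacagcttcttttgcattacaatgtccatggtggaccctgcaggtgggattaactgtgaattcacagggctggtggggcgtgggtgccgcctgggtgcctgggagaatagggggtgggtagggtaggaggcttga
Trim28: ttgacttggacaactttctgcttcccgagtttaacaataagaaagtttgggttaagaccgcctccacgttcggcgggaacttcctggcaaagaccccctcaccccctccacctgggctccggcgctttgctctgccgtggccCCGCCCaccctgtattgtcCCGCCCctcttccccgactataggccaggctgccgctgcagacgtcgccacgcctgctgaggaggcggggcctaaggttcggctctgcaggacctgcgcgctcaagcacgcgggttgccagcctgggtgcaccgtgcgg
Sox2: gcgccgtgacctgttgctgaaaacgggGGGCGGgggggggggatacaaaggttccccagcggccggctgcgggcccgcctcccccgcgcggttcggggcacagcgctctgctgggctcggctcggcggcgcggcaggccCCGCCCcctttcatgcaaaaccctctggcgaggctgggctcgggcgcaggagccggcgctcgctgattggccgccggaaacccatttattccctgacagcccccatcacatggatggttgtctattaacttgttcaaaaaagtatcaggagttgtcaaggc
Tet2: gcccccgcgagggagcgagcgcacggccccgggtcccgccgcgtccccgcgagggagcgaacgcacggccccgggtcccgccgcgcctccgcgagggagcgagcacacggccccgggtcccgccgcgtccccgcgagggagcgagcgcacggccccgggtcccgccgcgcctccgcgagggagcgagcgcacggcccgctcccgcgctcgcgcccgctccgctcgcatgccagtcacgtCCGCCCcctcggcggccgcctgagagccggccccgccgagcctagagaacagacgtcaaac
The Nanog window held 4 CpG and no GC box, and it lay inside intervals of MTX 1, MTX 2, control 1 and IgG. The other windows held 23 CpG (Trim28), 27 (Sox2) and 57 (Tet2). The Trim28 and Sox2 windows were overlapped by control 1 and IgG, and the Tet2 window by control 1.

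Members carried intervals far more often than other genes in MTX 1 and IgG, more often in control 1, and about as often in MTX 2 and control 2. Within 10 kb, 22 of the 32 members had an interval in MTX 1 (68.8%, against 38.3% of all protein-coding genes) and 11 in MTX 2 (34.4%, against 35.1%). Control 1 had 23 (71.9%, against 53.3%), control 2 had 12 (37.5%, against 29.9%), and IgG had 22 (68.8%, against 31.6%). Gene ends, meaning within 1 kb of either end, were counted next. There, 18 members had an interval in MTX 1 (56.2%, against 13.4% of all genes), 5 in MTX 2 (15.6%, against 9.27%), 16 in control 1 (50%, against 20.2%), 3 in control 2 (9.38%, against 7.72%) and 15 in IgG (46.9%, against 10.4%). These counts are given without a test, since the members were chosen with earlier results of these data known. Members were shorter than other genes, with a median span of 11250 bp against 17170 bp. Per base, intervals covered 11.5% of the member windows in MTX 1 against 4.5% over all genes, 4.02% against 5.1% in MTX 2, 14.3% against 6.63% in control 1, 4.47% against 4.2% in control 2, and 11.4% against 4.24% in IgG.

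**Figure D1:**
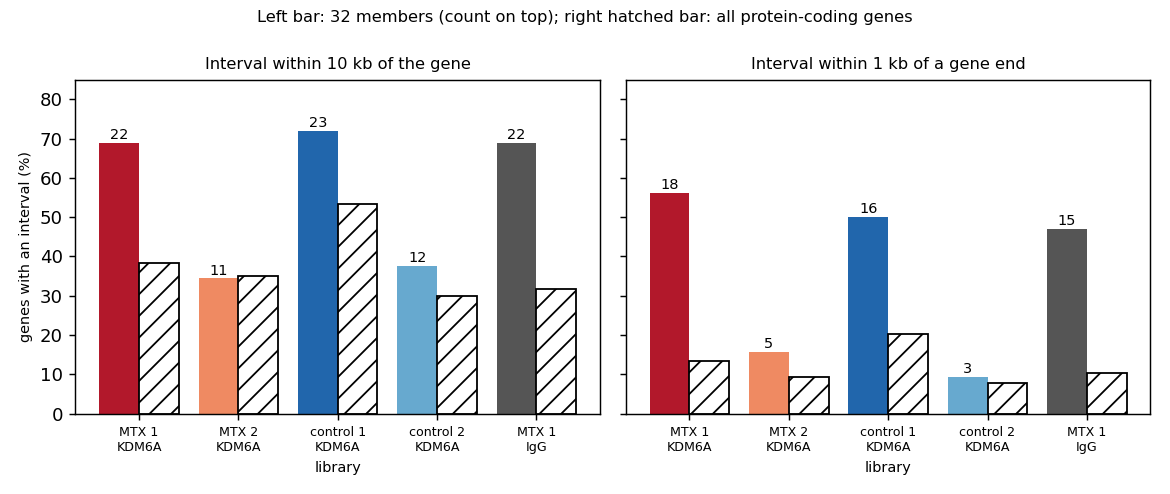
Share of genes (%) with an interval within 10 kb of the gene (left panel) or within 1 kb of a gene end (right panel), by library. Solid bars are the 32 members with their count on top and hatched bars all 21883 protein-coding genes; in both panels the solid bars stand further above the hatched ones in MTX 1, control 1 and IgG than in MTX 2 and control 2.

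Enrichment over background was low at the members. Fold here is the reads of the immunoprecipitate divided by those of the background and scaled for depth, summed over all intervals of a member. Its median was 1.22 in MTX 1 and 1.43 in MTX 2, 1.31 in control 1 and 1.57 in control 2, and 1.28 in IgG, beside 1.35, 1.4, 1.47, 1.35 and 1.36 over all genes with an interval. The group means were 1.32 ± 0.15 in MTX and 1.44 ± 0.18 in control cells (SD, n = 2), a difference within the spread between libraries. Intervals of the members also passed a deposited adjusted p of 0.05 less often than their lists did. In MTX 1 this was 29 of 52 intervals (55.8%, against 78.8% of the list), in MTX 2 it was 14 of 19 (73.7%, against 83.7%), in control 1 it was 43 of 68 (63.2%, against 84.9%), in control 2 it was 14 of 21 (66.7%, against 78.6%) and in IgG it was 27 of 41 (65.9%, against 83.7%). Background reads were denser there: the median per kb was 31.6 against 25.4 over the list in MTX 1, 30.2 against 25.8 in MTX 2, 30.0 against 23.2 in control 1, 26.2 against 25.4 in control 2 and 28.3 against 24.1 in IgG. Immunoprecipitated reads per kb were 36.3 against 33.8, 33.7 against 34.6, 29.9 against 28.3, 34.4 against 34.0 and 36.2 against 34.6 in the same order of libraries. The part that background density has in the counts of members was not tested.

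**Figure D2:**
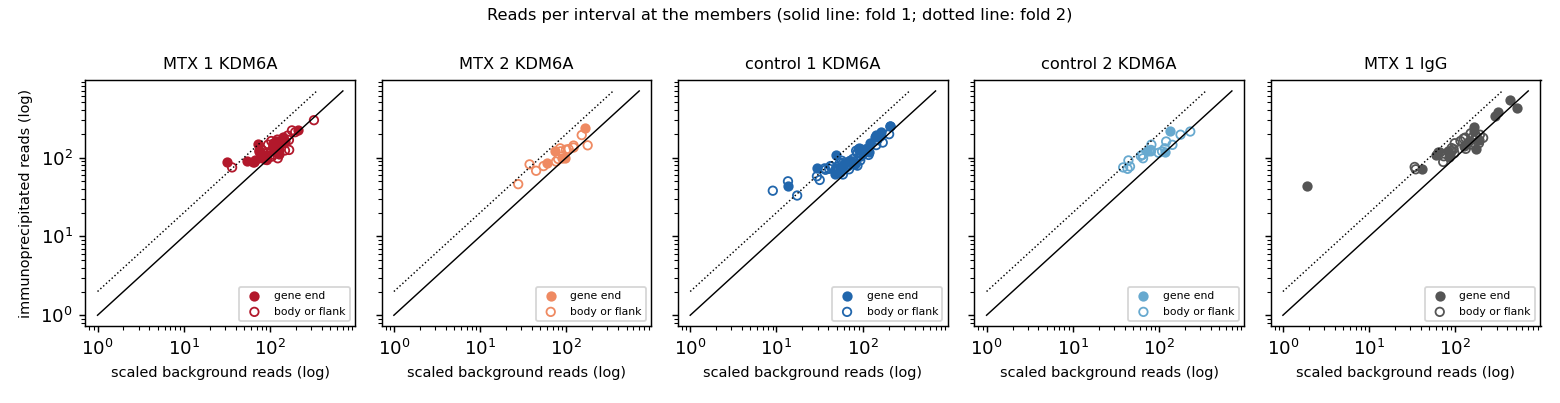
Immunoprecipitated reads against scaled background reads (both on log axes) for each interval at the members, by library, with filled points at gene ends and open points in bodies or flanks. Most points lie between fold 1 (solid line) and fold 2 (dotted line); 3 of 52 intervals in MTX 1, 1 of 19 in MTX 2, 6 of 68 in control 1, 1 of 21 in control 2 and 3 of 41 in IgG exceed fold 2.

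The core factors were reached mainly by the libraries numbered 1 and by IgG. Pou5f1, which encodes OCT4, had 1 interval in MTX 1, with 97 immunoprecipitated and 93 background reads (fold 1.12), and 1 in IgG, with 130 and 180 reads (fold 0.75). MTX 2 and both control libraries had no interval there, and the MTX 1 interval (chr17:35503801-35506000) ended just before the gene start. Sox2, the partner of OCT4 on composite sites, had 3 intervals in MTX 1 with 424 and 374 reads in all (fold 1.22), 3 in control 1 with 343 and 294 reads (fold 1.54), and 1 in IgG with 335 and 302 reads (fold 1.15). One control 1 interval and the IgG interval covered the single-exon Sox2 gene, while the other control 1 intervals and all 3 of MTX 1 lay in the flanks, and neither library numbered 2 had one. Nanog, a homeobox factor that stabilises self-renewal, had 105 and 84 reads in MTX 1 (fold 1.34), 98 and 107 in MTX 2 (fold 1.03), 210 and 234 over 2 intervals in control 1 (fold 1.19), and 139 and 130 in IgG (fold 1.11). MTX 1, MTX 2, control 1 and IgG all held the 1600 bp at chr6:122706801-122708400, around the promoter printed above. At that start the deposited adjusted p (Poisson test of the list's authors) was 0.00263 in MTX 1, 0.399 in MTX 2, 0.432 in control 1 and 0.118 in IgG, so only the MTX 1 interval passed 0.05.

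The 3 KLF factors, zinc finger proteins that bind GC boxes and sustain the naive state, had no interval in MTX 2 or control 2. Klf5 had 4 intervals in MTX 1 with 495 and 366 reads (fold 1.45), 3 in control 1 with 315 and 310 (fold 1.34) and 1 in IgG with 534 and 441 (fold 1.26). The IgG interval ran over 16200 bp through the gene and overlapped 3 of the 4 MTX 1 intervals. Klf2 had 92 and 72 reads in MTX 1 (fold 1.37), in an interval over most of this short gene. In IgG it had a 400 bp interval where transcription finishes (chr8:72321201-72321600) with 44 immunoprecipitated and 2 background reads, a fold of 22.8 (exact binomial 95% interval 5.96 to 194, which covers counting error only). That interval stood 19th by deposited p in the IgG list, and no KDM6A library had one there. Klf4 had 192 and 184 reads over 2 intervals in control 1 alone (fold 1.38).

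**Figure D3:**
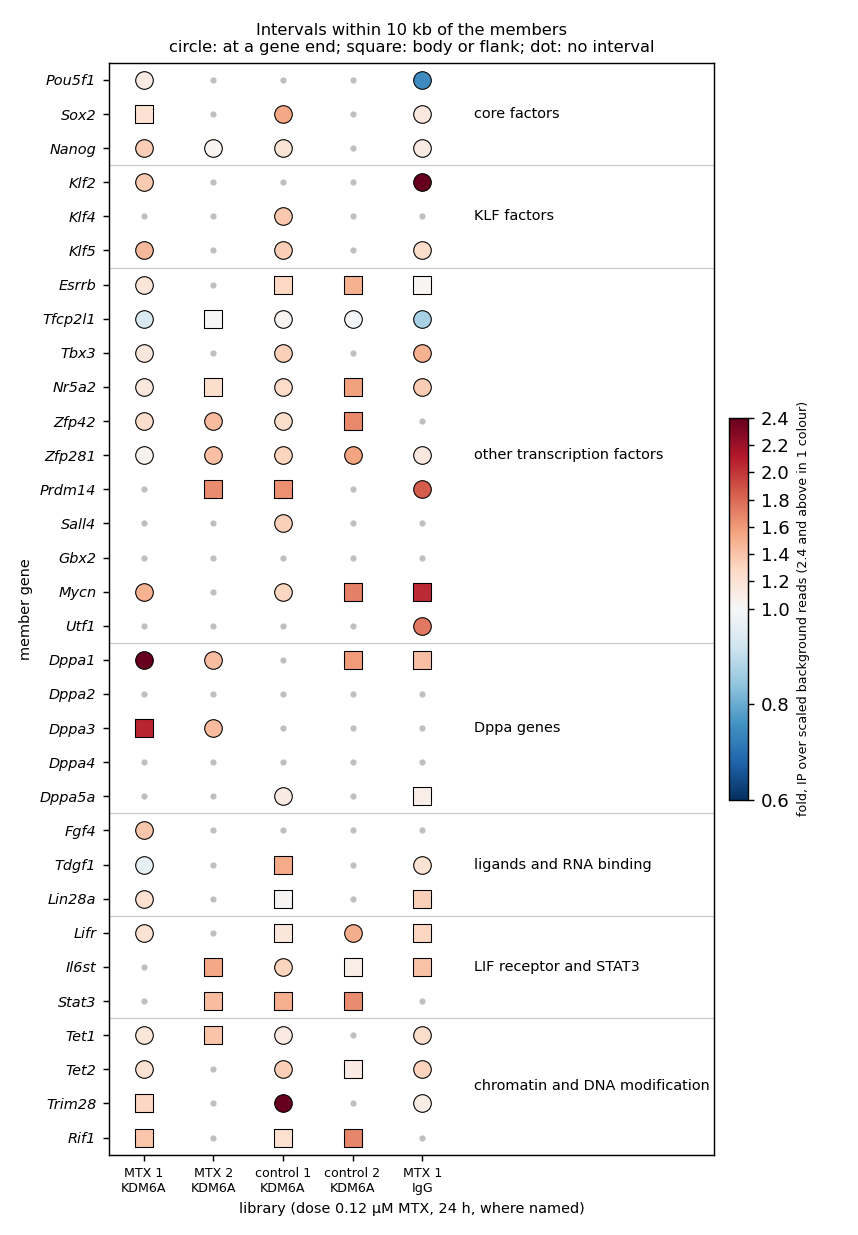
Members (rows, by role) and libraries (columns), with the fold of immunoprecipitated over scaled background reads as colour; circles have an interval at a gene end, squares only in the body or flank, and small dots none. The columns of MTX 1, control 1 and IgG are filled for 22, 23 and 22 of 32 members, those of MTX 2 and control 2 for 11 and 12.

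Among the other transcription factors, Tfcp2l1, Nr5a2, Zfp42 and Zfp281 had an interval in all 4 KDM6A libraries. That is 4 of 32 members (12.5%), against 15.4% of all protein-coding genes. Tfcp2l1, a LIF-responsive factor, had 1219 and 1398 reads over 8 intervals in MTX 1 (fold 0.935), 405 and 453 over 3 in MTX 2 (fold 1.00), 739 and 951 over 5 in control 1 (fold 1.03), 596 and 623 over 4 in control 2 (fold 0.997), and 1065 and 1272 over 5 in IgG (fold 0.869). It was the member with the most intervals, 25 over the 5 libraries, and its folds lay between 0.869 and 1.03. Nr5a2, a nuclear receptor that can replace OCT4 in reprogramming, had folds of 1.14 in MTX 1 (377 and 354 reads), 1.24 in MTX 2 (588 and 530), 1.27 in control 1 (655 and 683), 1.58 in control 2 (121 and 80) and 1.35 in IgG (596 and 458). At the end of Nr5a2 where transcription finishes, MTX 1, control 1 and IgG shared 600 bp at chr1:136841401-136842000, and the control 1 interval there had a fold of 3.16 from 43 and 18 reads.

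Zfp281, a zinc finger factor of the primed transition, was the 1 member (3.12%) whose gene ends carried an interval in each of the 5 libraries; 0.973% of all genes did so in the 4 KDM6A libraries. Its folds were 1.04 in MTX 1 (221 and 227 reads), 1.42 in MTX 2 (234 and 184), 1.31 in control 1 (321 and 323), 1.56 in control 2 (335 and 224) and 1.15 in IgG (486 and 439). The 4 KDM6A libraries had 1600 bp in common at chr1:136630001-136631600, which takes in the last bases of the gene and those just past it. IgG had intervals on either side of that stretch and none over it. The MTX 1, MTX 2 and control 1 intervals that hold the stretch overlapped an IgG interval beside it, and the control 2 interval did not. The deposited adjusted p of the KDM6A intervals that hold it was 0.276 in MTX 1, 3.21e-07 in MTX 2, 0.0042 in control 1 and 4.25e-10 in control 2, so the MTX 1 interval did not pass 0.05. Zfp42, which encodes the stem cell marker REX1, had folds of 1.24 in MTX 1 (399 and 345 reads), 1.44 in MTX 2 (181 and 141), 1.25 in control 1 (274 and 291) and 1.67 in control 2 (77 and 48), and no IgG interval. MTX 1, MTX 2 and control 1 shared 1200 bp in the flank past its 3′ side at chr8:43285801-43287000. The control 2 interval lay within the gene, inside another interval of MTX 2.

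**Figure D4:**
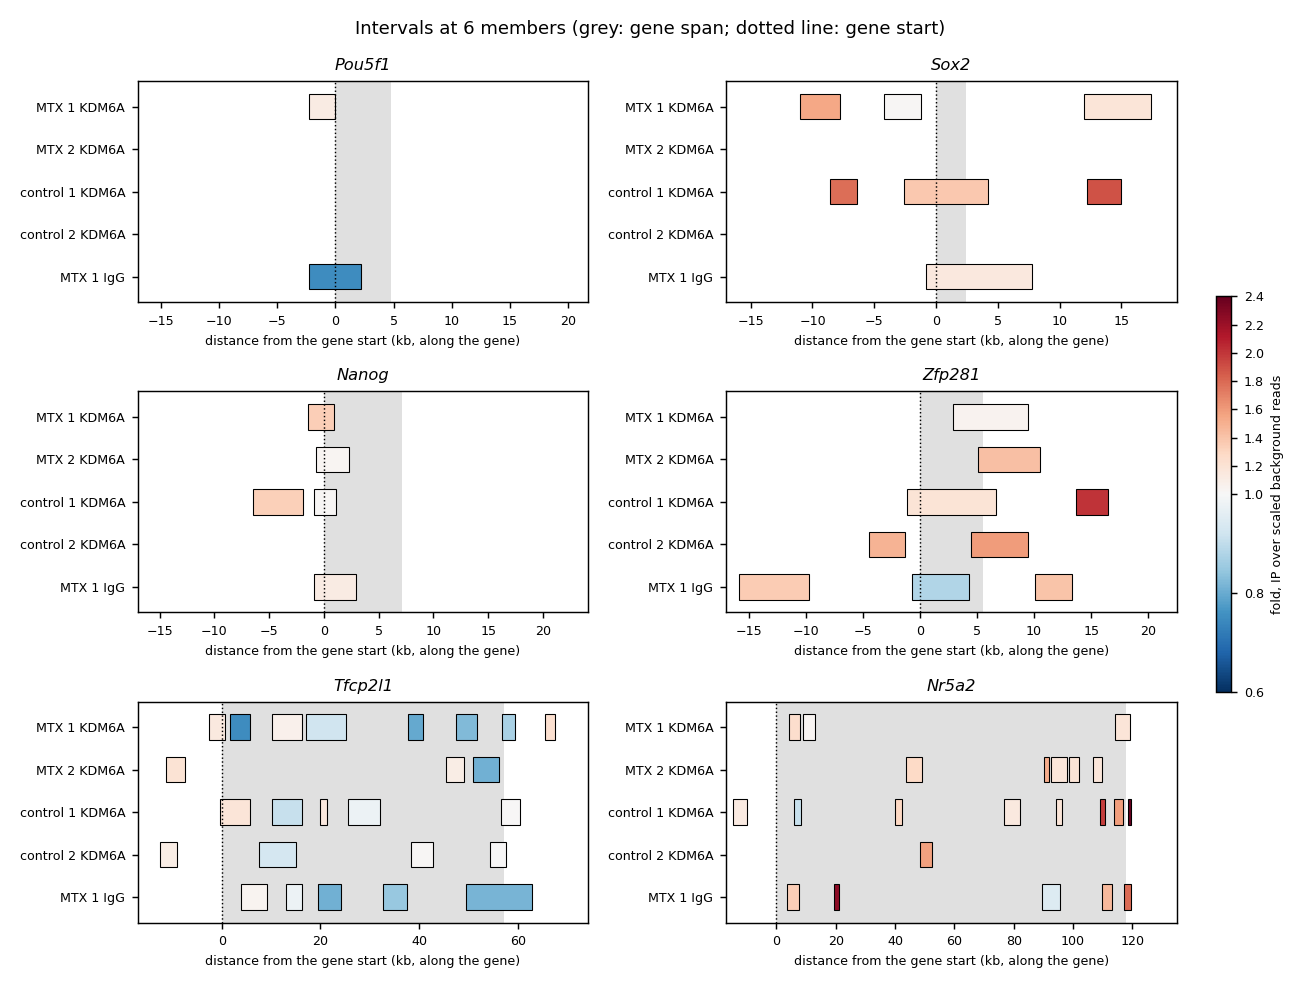
Intervals of each library at 6 members, by distance from the gene start (kb, along the gene), with the gene span in grey and the fold as colour. At Nanog the intervals of MTX 1, MTX 2, control 1 and IgG meet at the start. At Zfp281 the 4 KDM6A libraries meet at the other end, in a gap between IgG intervals that those of MTX 1, MTX 2 and control 1 reach.

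The remaining transcription factors had intervals in 0 to 4 libraries. Tbx3, a T-box factor, had folds of 1.15 in MTX 1 (299 and 278 reads), 1.33 in control 1 (228 and 227) and 1.5 in IgG (247 and 171), with all 3 at the same gene end. Mycn, a proliferation factor, had 1.5 in MTX 1, 1.31 in control 1, 1.71 in control 2 and 2.05 in IgG, with gene-end intervals in MTX 1 and control 1 alone. Esrrb, an orphan nuclear receptor, had 1.18 in MTX 1, 1.29 in control 1, 1.5 in control 2 and 1.02 in IgG. A narrow Esrrb interval of control 1, 600 bp in the gene body, had the highest fold of any KDM6A interval at the members, 4.19 from 38 and 12 reads. Prdm14, a PR-domain factor of the naive state, had 1.66 in MTX 2, 1.64 in control 1 and 1.85 in IgG, at 3 sites that did not overlap. Sall4 had 1.33 in control 1 alone, and Utf1 had 1.74 in IgG alone, the 1 member with IgG and no KDM6A interval (3.12%, against 2.08% of all genes). Gbx2 had no interval in any library, nor did Dppa2 and Dppa4, which makes 3 members without one (9.38%, against 30% of all genes).

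The Dppa genes, named for their expression in early embryos, held the 1 member with intervals in both MTX libraries and no other. Dppa3, which protects maternal DNA methylation in the zygote, was the 1 member (3.12%, against 1.38% of all genes) with an interval in both MTX libraries and neither control library. It had 75 and 39 reads in MTX 1 (fold 2.06) and 86 and 67 in MTX 2 (fold 1.44), but the 2 intervals were neighbours that did not overlap (chr6:122633001-122635000 in MTX 1, chr6:122630601-122632800 in MTX 2). Dppa1 on chromosome 11 had gene-end intervals in both MTX libraries alone, with 89 and 34 reads in MTX 1 (fold 2.81) and 121 and 82 in MTX 2 (fold 1.65), both from base 46605401. MTX 2 had a second interval in the gene body with 126 and 111 reads (fold 1.27). Within 10 kb Dppa1 also had 4 control 2 intervals with 452 and 296 reads (fold 1.59) and an IgG interval with 104 and 76 reads (fold 1.42). At gene ends, 1 of 32 members was MTX-only by this count, against 0.754% of all genes. The opposite pattern, control 1 and control 2 without MTX 1 or MTX 2, was seen at 0 members, against 2.7% of all genes within 10 kb and 1.09% at gene ends. Dppa5a had 1.11 in control 1 and 1.10 in IgG. Leaving out 1 library loosens these conditions for any gene. MTX-only members within 10 kb then numbered 1 without MTX 1, 4 without MTX 2, 3 without control 1 and 2 without control 2. Control-only members numbered 5, 2, 0 and 3 in the same order. The shares of all genes were not computed for these, so the counts are not read as a result about the members. Absence means that no interval was listed, not that there were no reads.

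Ligand and signalling genes each had intervals in 1 to 4 libraries. Fgf4, the ligand that primes cells to leave the naive state, had an interval in MTX 1 alone, with 88 and 68 reads (fold 1.39). Tdgf1, a co-receptor of NODAL, had folds of 0.964 in MTX 1 (124 and 138 reads), 1.53 in control 1 (111 and 96) and 1.22 in IgG (102 and 87). Lin28a, an RNA-binding protein that blocks maturation of let-7, had 1.23 in MTX 1 (246 and 215 reads), 1.02 in control 1 (71 and 92) and 1.34 in IgG (121 and 94). MTX 1, control 1 and IgG had 2800 bp in common inside Lin28a. The LIF receptor genes were covered otherwise: Lifr had 1.21 in MTX 1, 1.16 in control 1, 1.51 in control 2 and 1.30 in IgG, and its partner Il6st had 1.54 in MTX 2, 1.31 in control 1, 1.10 in control 2 and 1.41 in IgG. Stat3, the effector of LIF on chromosome 11, had 1.43 in MTX 2, 1.51 in control 1 and 1.67 in control 2, all inside the gene, at sites that did not overlap, and no interval in IgG.

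The chromatin and DNA modification genes had intervals of both libraries numbered 1. Tet1, an enzyme of DNA demethylation, had folds of 1.17 in MTX 1 (469 and 431 reads), 1.40 in MTX 2 (120 and 96), 1.12 in control 1 (766 and 901) and 1.25 in IgG (864 and 719). Tet2, its relative, had 1.21 in MTX 1 (518 and 459 reads), 1.34 in control 1 (835 and 823), 1.12 in control 2 (131 and 122) and 1.32 in IgG (671 and 528). Where transcription of Tet2 finishes, control 1 reached 2.20 from 108 and 65 reads and MTX 1 reached 1.38 from 162 and 126, without an IgG interval there. MTX 1, control 1 and control 2 shared 400 bp in the flank past that end, at chr3:133461601-133462000. Trim28, a corepressor that silences retroelements, had 1.30 in MTX 1 in the flank, 2.51 in control 1 at the gene start (74 and 39 reads) and 1.10 in IgG over the same start. Rif1, a regulator of replication timing, had 1.38 in MTX 1, 1.22 in control 1 and 1.68 in control 2, with 1200 bp in common inside the gene and no IgG interval.

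More members split by library number than by condition. Both libraries numbered 1 and neither numbered 2 had an interval within 10 kb of 6 members (18.8%, against 6.4% of all genes): Sox2, Klf5, Tbx3, Lin28a, Tdgf1 and Trim28. The reverse held for 0 members, against 1.09% of all genes, and all 6 also had an IgG interval. At gene ends the counts were 6 (18.8%, against 3.09%) and 0 (against 0.667%). Sites differed in the same way. Of the MTX 1 intervals at members, 32 of 52 (61.5%) overlapped one of control 1, and 32 of 68 (47.1%) the reverse. MTX 1 and MTX 2 overlapped in 5 of 52 (9.62%) and 6 of 19 (31.6%), control 1 and control 2 in 6 of 68 (8.82%) and 6 of 21 (28.6%), and MTX 2 and control 2 in 7 of 19 (36.8%) and 8 of 21 (38.1%). These overlaps were not computed over the whole lists or in lists of equal length, so they are not read as particular to the members. When each list was shortened to its 21205 best intervals by deposited p, 20 members (62.5%, against 34.8% of all genes) remained with an interval in MTX 1, 9 (28.1%, against 27.3%) in MTX 2, 9 (28.1%, against 29.5%) in control 1, 12 (37.5%, against 29.9%) in control 2 and 21 (65.6%, against 29.3%) in IgG. At gene ends, MTX 1 had 16 (against 10.8%) and, among intervals with a deposited adjusted p under 0.05, 10 (against 8.98%), while control 1 had 4 at equal length (against 6.35%). At equal length, the share of control 1 within 10 kb was near that of all genes, and those of MTX 1 and IgG were above it.

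IgG reached the members as often as MTX 1 did. Of the 22 members in MTX 1, 18 had an IgG interval within 10 kb (56.2% of 32, against 21.6% of all genes with both). For control 1 the count was also 18 (56.2%, against 25.9%), for MTX 2 it was 8 (25%, against 20.4%) and for control 2 it was 9 (28.1%, against 18.3%). Intervals of the members overlapped an IgG interval in 20 of 52 cases in MTX 1 (38.5%, against 24.9% of the list), 6 of 19 in MTX 2 (31.6%, against 23.1%), 21 of 68 in control 1 (30.9%, against 18.4%) and 4 of 21 in control 2 (19.0%, against 25.5%). The IgG library and MTX 1 were set against the same background reads: in the 44 intervals with the same bounds in both lists, the background count was equal in 44. For MTX 2 it was equal in 2 of 45, and for control 1 and control 2 in 0 of 38 and 0 of 36. The part of this common background in the likeness of MTX 1 and IgG was not tested. At gene ends, 11 members had both MTX 1 and IgG (34.4%, against 3.71% of all genes), 2 had MTX 2 and IgG (6.25%, against 2.8%), 10 had control 1 and IgG (31.2%, against 4.59%) and 2 had control 2 and IgG (6.25%, against 2.57%). MTX 1, control 1 and IgG together marked the ends of 8 members (against 2.19%). IgG without KDM6A was at the ends of Prdm14 and Utf1 (6.25%, against 3.27%), and KDM6A without IgG at those of 12 members (37.5%, against 27.6%). No library had an interval at the ends of 5 members (15.6%, against 61.9%), namely Dppa2, Dppa4, Stat3, Rif1 and Gbx2. Within 10 kb, the 7 members with a KDM6A interval and none in IgG (21.9%, against 38.4% of all genes) were Klf4, Zfp42, Sall4, Dppa3, Fgf4, Stat3 and Rif1.

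In the full lists, promoters differed by library number too. Gene-start counts and CpG were not computed in lists of equal length, where gene-end members of control 1 numbered 4 (against 6.35% of all genes). The start of a gene was taken from its span, not from its promoter window. The Lifr window lay inside an IgG interval that is therefore not counted here. The strand was known for 23 members. Of these, 7 had an interval at the gene start in MTX 1 (30.4%, against 9.04% of all genes of known strand), 1 in MTX 2 (4.35%, against 4.51%), 9 in control 1 (39.1%, against 12.9%), 0 in control 2 (against 3.5%) and 8 in IgG (34.8%, against 6.36%). At the end where transcription finishes, the counts were 12 in MTX 1 (52.2%, against 7.14%), 3 in MTX 2 (13.0%, against 6.81%), 9 in control 1 (39.1%, against 10.9%), 3 in control 2 (13.0%, against 5.8%) and 6 in IgG (26.1%, against 6.09%). Over all genes with a gene-start interval, the promoter window held a median of 19 CpG in MTX 1, 5 in MTX 2, 19 in control 1, 4 in control 2 and 16 in IgG, beside 13 over all 17491 promoters. The members with a gene-start interval had a median of 11 CpG in MTX 1 (7 members), 4 in MTX 2 (1 member), 27 in control 1 and 20 in IgG. The MTX 1 median lay below that of all promoters, but its members lay on both sides. Klf2 (32), Tfcp2l1 (21) and Mycn (14) were above 13, and Pou5f1 (11), Lin28a (10), Tdgf1 (7) and Nanog (4) below. Over all genes with such an interval, the median GC share was 59.3%, 49.2%, 58.7%, 47.3% and 57.3% in the same order. Member promoters were themselves rich in CpG, with a median of 17 CpG and 63.3% GC. A GC box (GGGCGG on either strand) was in 18 of the 23 (78.3%), against 46.3% of all promoters. The E-box CACGTG, a MYC site, was in 2 (8.70%, against 7.91%), and the octamer ATGCAAAT, on either strand, was in 1 (4.35%, against 1.72%), that of Zfp42.

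**Figure D5:**
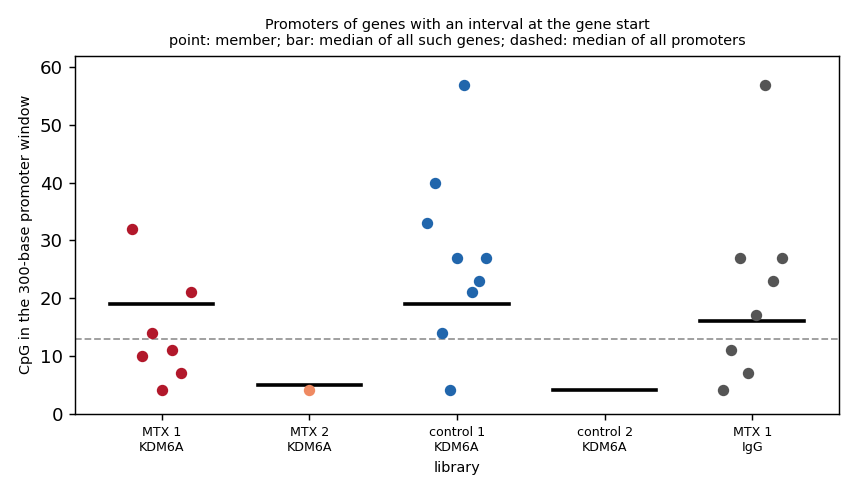
Number of CpG in the 300-base promoter window of genes with an interval at the gene start, by library. Points are members, bars the median of all such genes (19, 5, 19, 4 and 16 from left to right), and the dashed line the median of all promoters (13); control 2 has no member.

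The comparison of MTX with control cells asks whether KDM6A moved at these genes after 24 h of MTX. It could be tested where all 4 KDM6A libraries had an interval, with edgeR's quasi-likelihood test. Immunoprecipitated reads were set against the background reads of the same intervals. Each library's reads came from its own listed intervals, so libraries were compared per gene window and not at the same bases. At Nr5a2, for example, the control 2 interval overlapped none of MTX 1. No gene passed an adjusted p of 0.05, 0 of 3363 in all (0% called) and 0 of the 4 members. At an unadjusted p under 0.05 there were 110 genes and 0 members. DESeq2, which left out the background reads, and limma also called 0, with 127 and 141 genes under an unadjusted p of 0.05. Without MTX 2, control 1 or control 2, edgeR called 7, 2 and 11 genes, none of them a member. The mean log2 fold of Zfp281 was 0.29 ± 0.32 in MTX and 0.52 ± 0.17 in control cells (SD, n = 2), and edgeR gave a log2 fold change of -0.22 (adjusted p = 0.994). For Nr5a2 the means were 0.25 ± 0.09 and 0.50 ± 0.22, with -0.22 (edgeR, adjusted p = 0.994). Zfp42 had 0.42 ± 0.15 in MTX and 0.53 ± 0.30 in control cells, and Tfcp2l1 had -0.05 ± 0.07 and 0.02 ± 0.03. Log2 fold changes of these 2 were -0.09 and -0.07, with the same adjusted p in edgeR. Each difference was smaller than 1.5 times its standard error (0.26 for Zfp281, 0.17 for Nr5a2, 0.24 for Zfp42 and 0.05 for Tfcp2l1, log2). With scalings that leave out the background reads, the directions at Nr5a2, Tfcp2l1 and Zfp42 turned. Such scalings compare reads summed over unequal lengths of sequence. In data simulated from these libraries with a common dispersion for all genes, the same test recovered 87.5% of 200 genes changed by 2-fold. It also called 13 unchanged genes. Differences in dispersion between genes and in sites between libraries were not simulated, so this recovery does not carry over to the real data as it stands. Recovery of changes smaller than 2-fold, such as those at the 4 members (log2 fold changes of -0.22 to -0.07), was not tested. The median fold of the members over background was itself 1.22 to 1.57 in the KDM6A libraries.

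A list of 40 other genes of the network and its regulators was counted in the same way. Within 10 kb, 23 had an interval in MTX 1 (57.5%, against 38.3% of all genes), 15 in MTX 2 (37.5%, against 35.1%), 33 in control 1 (82.5%, against 53.3%), 12 in control 2 (30.0%, against 29.9%) and 18 in IgG (45.0%, against 31.6%). At gene ends the counts were 10 in MTX 1 (25%, against 13.4%), 4 in MTX 2 (10.0%, against 9.27%), 21 in control 1 (52.5%, against 20.2%), 1 in control 2 (2.5%, against 7.72%) and 7 in IgG (17.5%, against 10.4%). Rest, a repressor of neuronal genes, had intervals at its ends in each of the 5, with folds of 0.984 in MTX 1, 0.933 in MTX 2, 1.11 in control 1, 1.24 in control 2 and 1.04 in IgG. Gsk3b, the kinase that restrains WNT signalling, had 1.44, 1.48, 1.5, 1.28 and 1.42 in the same order. The DNA loop factor Ctcf and the Polycomb partner Jarid2 also had intervals in all 5 libraries within 10 kb, with folds of 1.17 to 1.86 and of 1.21 to 1.35.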

How the data were processed

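The submitters' processing notes name Bowtie2 and the mm10 build. No interval caller is named in the labels or files. Per the values of the deposited lists, each interval holds whole read counts of the immunoprecipitated and a background library, a Poisson p-value, a fold (the ratio of both counts times 1 constant per list, 1.04 to 1.32) and an adjusted p-value. These folds and p-values are the authors'. Intervals lay on a 200 bp grid, were called per library and were not filtered here. Totals cover reads inside intervals only, so full depth is unknown.

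Genes, strands and promoters came from RefSeq (GRCm38.p6), and 23 of 32 members matched a promoter; Prdm14, Rif1, Sall4, Tbx3, Dppa2, Dppa3, Dppa4, Dppa5a and Klf5 did not. Reads inside each library's own intervals were summed per gene window of 10 kb flanks. The sums were tested with edgeR 4.0.16 (R 4.3.3, quasi-likelihood, offset by background reads, Benjamini-Hochberg adjustment over 3363 genes). With 2 libraries against 2, an exact permutation test cannot go below p = 0.333. The members and lists were chosen with earlier results of these data known. Full values were given for members with intervals in all 4 KDM6A libraries, with gene-end intervals in 3 or more of 5 libraries, in 1 condition alone, and for Pou5f1, Sox2 and Nanog; any other member or interval was chosen after its values were seen. DESeq2 1.42.0 and limma 3.58.1 (pseudocount 0.5) were alternatives. The test was also tried on simulated counts, with means and a common dispersion for all genes taken from the data.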

Additional observations from a re-analysis of the deposited data

How the results depend on the processing

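In lists of equal length, members with an interval within 10 kb fell to 9 in control 1 (against 29.5% of all genes), from 23 in the full list. Gene-end members fell to 4 in control 1 (against 6.35%) and 3 in MTX 2 (against 5.49%). With a deposited adjusted p under 0.05, gene-end members numbered 10 in MTX 1 (against 8.98% of all genes) and 3 in MTX 2 (against 6.68%). Without intervals that overlap IgG, gene-end members numbered 13 in MTX 1, 3 in MTX 2, 7 in control 1 and 2 in control 2. The shares of all genes were 10.6%, 6.9%, 16.7% and 5.52% in the same order. With gene ends of 2 kb, control 2 had 5, and with 5 kb MTX 2 and control 2 had 8 each. The shares of all genes were not computed for these wider ends. Members in all 4 KDM6A libraries numbered 2 at an adjusted p under 0.05 and 1 in lists of equal length. MTX-only members numbered 2 in lists of equal length, and control-only members 1 without intervals that overlap IgG. The shares of all genes in these classes were computed for the main setting alone. With 1 library left out the condition is looser. Members in all remaining libraries then numbered 5 to 9, MTX-only members 1 to 4 and control-only members 0 to 5. The highest of these were 9 and 4 without MTX 2, and 5 without MTX 1; control-only members numbered 2 without MTX 2 and 3 without control 2. The median fold of the members in control 1 was 1.58 from the best interval alone. Flanks of 5 kb, 20 kb and 0 kb moved no count within a library by over 1.5 times.

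No setting called a member between MTX and control cells. Over all genes, edgeR called 0 with all libraries, and 0 to 11 when 1 was left out: 0 without MTX 1, 7 without MTX 2, 2 without control 1 and 11 without control 2, where the lone library of a group is taken to vary like the others. TMM without the background offset, DESeq2 and limma called 0, with 64, 127 and 141 genes under an unadjusted p of 0.05. A replicate block called 2 genes. In the log2 folds of the 3363 genes with an interval in all KDM6A libraries, deviations of same-numbered libraries correlated by 0.04. That value does not cover which genes and sites had an interval, where MTX 1 and control 1 were alike. The main test had no replicate block, and whether the numbers pair the libraries was not settled. Log2 fold changes turned positive with TMM and with DESeq2 at Nr5a2 (0.28 and 0.28), Tfcp2l1 (0.33 and 0.33) and Zfp42 (0.77 and 0.77), and at Zfp42 without MTX 1 (0.0073) and without control 2 (0.10). At Zfp42 the values with 1 library left out ran from -0.33 to 0.10. TMM and DESeq2 leave out the background reads, so they compare reads summed over unequal lengths of sequence. At Zfp42 the intervals covered 11200 bp in MTX 1, 5400 in MTX 2, 8200 in control 1 and 1400 in control 2. The directions from these settings are not read as a shift of KDM6A. The cause of the turn was not tested. Median reads per member interval were 90 to 146, which limits each fold; intervals cover counting error only.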
